A study of Mus musculus with 187 samples.

Results

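Nucleolar ribosome biogenesis factors are the proteins that transcribe, fold, modify and cut ribosomal RNA before it becomes a ribosome. The set described here holds 54 genes, found by symbol among Nop, Utp, Rrp, Polr1, Nol and related names in tables of single mouse embryos. Of these, 53 are among the 8735 genes listed for 2-cell embryos given sperm RNA, 53 among the 8805 genes listed for 2-cell embryos given tRNA fragments (tRFs), and 54 among the 23534 features listed for 4-cell embryos. Expression values played no part in the choice. One symbol the pattern caught, Ncln, encodes nicalin, an endoplasmic reticulum membrane protein, and is not a nucleolar factor. It is listed in the 4-cell table only.

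The embryos were of the FVB strain. Sperm and oocytes were both taken from control-diet animals, and the zygotes made in vitro from them were injected with RNA about 2 h after fertilisation. Among 2-cell embryos, collected 32 h after fertilisation, 46 embryos had received small RNA from sperm of males on a low protein diet and 42 small RNA from sperm of control males. A further 26 had received a tRF-GlyGCC oligonucleotide with modified bases, 6 a tRF-GluCTC oligonucleotide and 11 GFP mRNA. Among 4-cell embryos, 27 had received an oligonucleotide antisense to tRF-GlyGCC and 28 had received GFP mRNA. The GFP mRNA encoded an H3.3-GFP fusion, and embryos with a GFP signal were collected. The identity of the antisense group is uncertain, because the authors' deposited table of that comparison names the group tRFGGunmod. The labels and a column header of the FPKM table both say antisense, and that name is used here. The title of each embryo ends in a code that reads like a shared day, taken as its batch (A to F for sperm RNA, G and H for the tRFs, J to R without O at the 4-cell stage). Batch H held all 6 embryos given tRF-GluCTC, and batch R held GFP embryos only. No label links an embryo to a litter, a male or a sperm RNA preparation, so p-values speak only of the spread from embryo to embryo here.

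RNA polymerase I transcribes one long precursor of ribosomal RNA inside the nucleolus. Box C/D particles methylate that precursor, box H/ACA particles convert uridines in it to pseudouridine, and large assemblies then carve out the small and the large subunit. In the mouse, the oocyte stops making ribosomal RNA before ovulation, and the embryo restarts it as its own genome is activated around the 2-cell stage, when nucleolus precursor bodies become working nucleoli. Of the 54 genes, 5 encode subunits of RNA polymerase I, 3 belong to box C/D particles, 4 to box H/ACA particles, 21 to the assembly of the small subunit and 17 to that of the large subunit. Another 3 encode abundant nucleolar proteins with several roles (Npm1, Ncl and Nolc1), and Ncln stands apart.

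The median total per embryo was 2.29 M counts with low protein and 1.97 M with control sperm RNA (0.665 to 4.56 M over both groups). It was 1.89 M with tRF-GlyGCC, 1.81 M with tRF-GluCTC and 2.08 M with GFP (0.644 to 2.68 M over the 3 groups). In each 2-cell group the median embryo had counts for all 53 factors, and the sparsest embryo, one given tRF-GlyGCC, had counts for 43. The 4-cell values are FPKM, which keep no depth, so the depth of those embryos is unknown. All 8 oocyte transcripts used as stage markers were present in every group. None of 10 cumulus and granulosa cell markers is listed in the 2-cell tables, and their summed level stayed at or below 3.17 FPKM at the 4-cell stage. One embryo was one library, so fewer cells and less RNA per cell cannot be told apart. For 10 factors the deposited counts were not whole numbers in over 50% of embryos, the mark of reads shared between loci, and their values are uncertain: Utp23, Nip7, Rrp7a, Gnl3l, Ncl, Nol10, Polr1b, Utp14a, Utp14b and Dkc1. This held for 13.8% of all listed genes. A further limit is overlap, since 11 factors share 100 or more exon bases with another gene and strandedness is not stated. Nop9 shares 860 bases with Cideb and Utp23 shares 345 with an antisense transcript, both on the opposite strand.

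The promoters of these genes were read because most of the factors varied together between 2-cell embryos, as described further on. RefSeq promoter windows (GRCm38.p6) of 250 bases before to 50 bases after the start were on hand for 44 of the 54 genes, and none was given for Gnl2, Rrp12, Utp23, Npm1, Gnl3l, Nol6, Fbl, Utp11l, Utp6 and Bop1. The motif CCGGAAGT, the core bound by ETS-family factors, occurred on either strand in 22.7% of these windows (10 genes), compared with 4.31% of the windows of all 27025 genes. The E-box CACGTG, bound by MYC and related factors, occurred in 20.5% (9 genes), compared with 8.09% of all windows. The palindromic 10-base NRF1 motif was in 0 of the 44 and in 1.07% of all windows. None of the motifs contains another, and a match says only that these letters are in the window. The background was not restricted to genes expressed in these embryos, and the share among those was not counted. The 250 bases before the start are printed for core factors with a whole match there, in the direction of transcription and with each match in capitals. Gar1 and Nhp2 encode box H/ACA proteins, Utp3 a small-subunit factor, and Nip7 and Nop2 large-subunit factors. Their windows are chr3:129831397-129831646 (minus strand), chr11:51619523-51619772, chr5:88554212-88554461, chr8:107056627-107056876 and chr6:125131633-125131882 (plus strand), in that order. Gar1 carries the reverse complement of CCGGAAGT beginning 44 bases before the start, Nhp2 and Nip7 carry CCGGAAGT itself 23 and 103 bases before it, and Utp3 carries it at 224 and at 138 bases. Nop2 carries CACGTG beginning 60 bases before the start.
Gar1: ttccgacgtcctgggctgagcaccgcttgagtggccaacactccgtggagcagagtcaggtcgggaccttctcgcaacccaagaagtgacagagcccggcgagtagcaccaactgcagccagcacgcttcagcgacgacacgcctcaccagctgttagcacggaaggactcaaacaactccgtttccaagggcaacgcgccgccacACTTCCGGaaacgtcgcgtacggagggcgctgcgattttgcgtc
Nhp2: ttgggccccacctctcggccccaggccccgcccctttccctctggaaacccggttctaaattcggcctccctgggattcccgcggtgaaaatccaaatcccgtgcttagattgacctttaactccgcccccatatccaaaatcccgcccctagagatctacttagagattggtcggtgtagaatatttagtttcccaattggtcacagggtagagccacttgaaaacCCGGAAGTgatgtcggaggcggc
Utp3: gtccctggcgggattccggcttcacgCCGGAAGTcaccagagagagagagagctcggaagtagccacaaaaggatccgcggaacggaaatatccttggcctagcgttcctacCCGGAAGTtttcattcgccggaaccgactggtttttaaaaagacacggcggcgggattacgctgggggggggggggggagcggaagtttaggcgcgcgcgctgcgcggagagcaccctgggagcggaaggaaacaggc
Nip7: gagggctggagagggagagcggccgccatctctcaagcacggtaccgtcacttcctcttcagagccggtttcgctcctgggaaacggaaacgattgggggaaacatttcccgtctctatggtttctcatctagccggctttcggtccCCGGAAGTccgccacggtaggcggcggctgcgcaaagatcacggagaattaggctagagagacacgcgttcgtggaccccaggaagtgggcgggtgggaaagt
Nop2: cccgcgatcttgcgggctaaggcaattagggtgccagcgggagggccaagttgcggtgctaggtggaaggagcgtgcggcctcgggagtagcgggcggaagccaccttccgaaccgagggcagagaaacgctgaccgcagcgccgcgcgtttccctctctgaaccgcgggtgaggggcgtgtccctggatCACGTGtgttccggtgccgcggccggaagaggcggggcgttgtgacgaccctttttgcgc

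Among the 4-cell embryos, where FPKM allow levels to be compared between genes, the factors lay high among expressed genes. Their median level was 78.3 FPKM with antisense and 75.6 FPKM with GFP, while the 7237 features whose mean reached 5 FPKM had a median of 20.6 FPKM with GFP. In GFP embryos 48 of the 54 lay above that median, and the median factor stood at percentile 81.1. Npm1, which encodes nucleophosmin, a histone and ribosome chaperone, was far above the rest at a median of 2154 FPKM with antisense and 2870 FPKM with GFP. It alone made up 25.8% of the summed FPKM of the set in the median antisense embryo and 32.7% in the median GFP embryo. Ncl, encoding nucleolin, and Nolc1, a chaperone of small nucleolar particles, were much lower, with median levels of 70.2 and 226 FPKM with antisense and 82.6 and 233 FPKM with GFP.

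Levels differed widely inside each particle. Within RNA polymerase I, Polr1d, a subunit shared with polymerase III, had median levels of 300 FPKM with antisense and 308 FPKM with GFP. Polr1a, the largest and catalytic subunit, had 16.5 FPKM with antisense and 18.4 FPKM with GFP, below the median of expressed features. Polr1c, also shared with polymerase III, had 228 and 211 FPKM with antisense and GFP, and Polr1b, the other large subunit, 45 and 36.7 FPKM. The 3 box C/D genes were close together: Nop58 had 322 and 342 FPKM, its partner Nop56 had 216 and 222 FPKM, and the methyltransferase Fbl had 153 and 156 FPKM with antisense and GFP. In box H/ACA particles, Nhp2 had 516 and 625 FPKM, Nop10 had 176 and 161 FPKM, Dkc1, the pseudouridine synthase, had 109.02 and 109.48 FPKM, and Gar1 had 53.4 and 58.4 FPKM, each with antisense and GFP.

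Among small-subunit factors, Imp3 (median levels of 294 FPKM with antisense and 271 FPKM with GFP) and Wdr43 (239 and 256 FPKM) were highest. Imp3 sits with the U3 particle and Wdr43 in the complex that first meets the nascent precursor. The lowest were Utp20, a very large scaffold protein (10.7 FPKM with antisense and 11.2 FPKM with GFP), and Utp14b, a retrogene copy of Utp14a (11.4 and 8.70 FPKM). Among large-subunit factors, Nol9, an RNA kinase needed to finish the large-subunit RNAs, had 149 and 152 FPKM and Gnl3, the GTP-binding protein nucleostemin, had 147 and 139 FPKM with antisense and GFP. Of the complex of Pes1, Bop1 and Wdr12, Bop1 had 143 and 125 FPKM, Pes1 had 68.6 and 69.3 FPKM and Wdr12 had 43.4 and 57.5 FPKM. The lowest large-subunit factors were Nol8 and Rrp1b, at medians between 11.6 and 13.2 FPKM over both groups. Neighbours in the order of levels were often closer than their spread between embryos, and the order of Polr1c and Nolc1 differed between antisense and GFP.

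**Figure D1:**
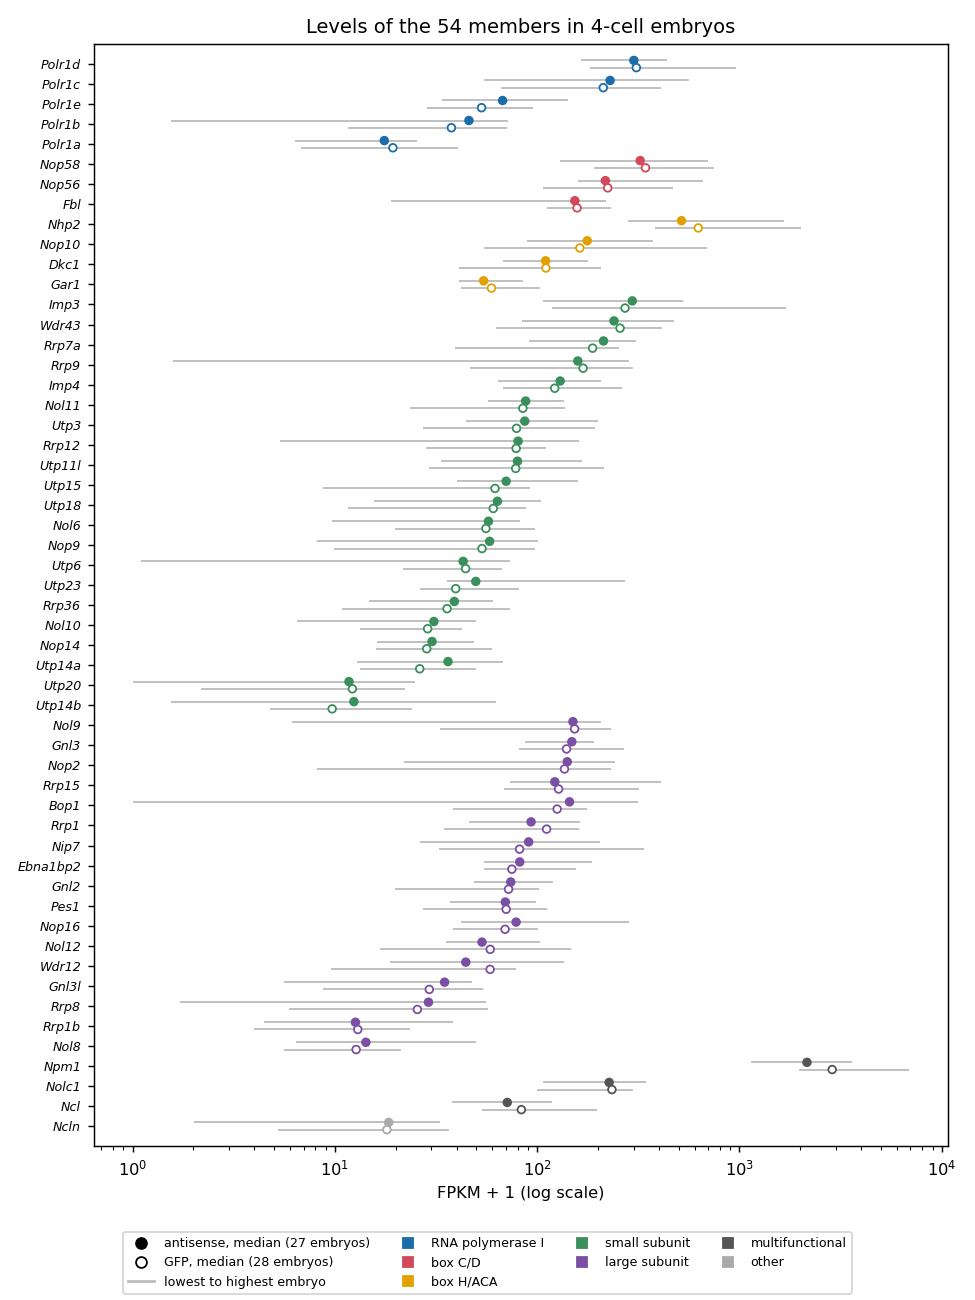
Level of each of the 54 genes at the 4-cell stage, by role, in FPKM on a log axis. Filled points are medians of 27 antisense embryos and open points medians of 28 GFP embryos. Npm1 lies far to the right of the others at 2154 and 2870 FPKM, and the points of both groups lie close together for most genes.

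Whole-set levels moved more between embryos of one group than between groups. The summed level of the 53 factors ran from 3818 to 17686 CPM (counts scaled for library size) with a median of 13312 CPM in embryos given low protein sperm RNA, and from 5042 to 18246 CPM with a median of 12378 CPM in those given control sperm RNA. It ran from 4420 to 16680 CPM (median 11605) with tRF-GlyGCC, from 9470 to 12981 CPM (median 11372) with tRF-GluCTC and from 4074 to 16754 CPM (median 11620) with GFP. The low protein range overlapped the control range, and the 6 tRF-GluCTC embryos lay inside the wider ranges of the other two groups of that table. In 4-cell embryos the sum was 5224 to 10552 FPKM (median 8054) with antisense and 7012 to 16808 FPKM (median 8603) with GFP. Total FPKM also differed between those embryos, from 0.447 to 0.759 M with antisense and from 0.449 to 1.01 M with GFP. With FPKM rescaled to the same total in each embryo, the median sums were 14389 with antisense and 14815 with GFP.

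**Figure D2:**
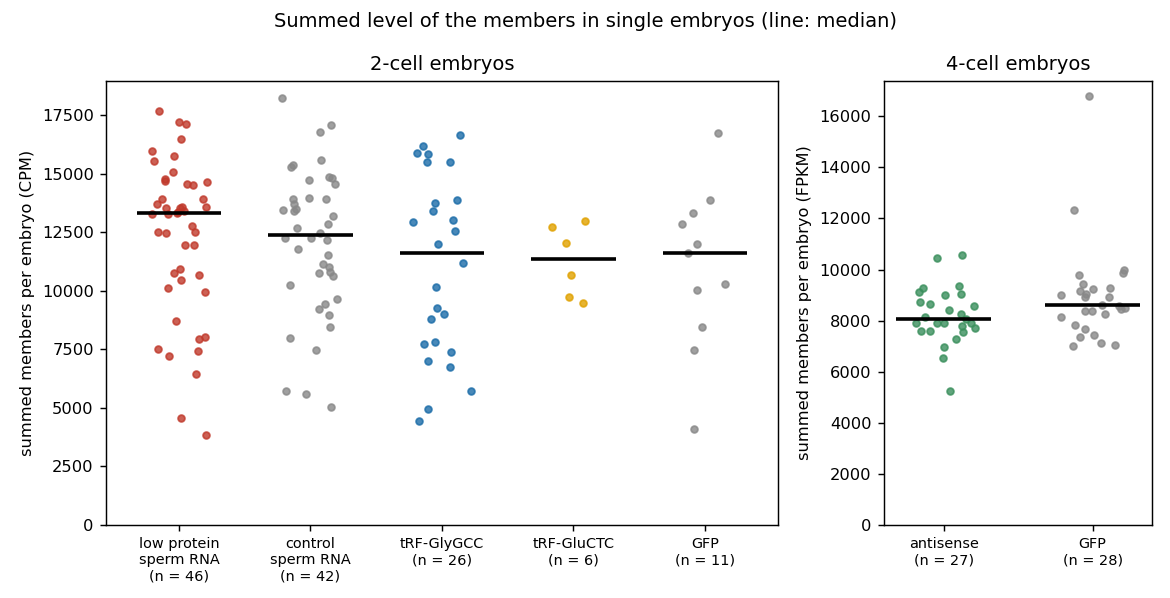
Summed level of the factors in each embryo, by injected RNA, in CPM for 2-cell and FPKM for 4-cell embryos. Each point is 1 embryo and each bar a group median. Low protein and control sperm RNA embryos both spread over more than a 3-fold range, with medians of 13312 and 12378 CPM.

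Single factors varied widely between embryos too. The median coefficient of variation (CV) between embryos was 47.3% with low protein and 47.4% with control sperm RNA, 60.1% with tRF-GlyGCC, 56.1% with tRF-GluCTC and 51.4% with GFP. In 4-cell embryos it was 34.9% with antisense and 32.2% with GFP. The same medians over all genes with a mean of at least 20 CPM or 5 FPKM were 59.2% and 56.7% for the sperm RNA groups, 62.9%, 59.3% and 52% for the tRF and GFP groups and 46.6% and 43.3% for antisense and GFP at the 4-cell stage. The steadiest factors were Ncl and Npm1 in 4 of the 5 groups of 2-cell embryos, for example Ncl with a CV of 26.2% with low protein and Npm1 with 31% with control sperm RNA. With tRF-GluCTC it was Polr1d (17.9%). The least steady were Utp20 (75.7% with low protein sperm RNA, 92.1% with GFP at the 2-cell stage), Nol6, a small-subunit factor (82.4% with control sperm RNA, 91.4% with tRF-GlyGCC), and Rrp12, which helps export the small subunit precursor (100% with tRF-GluCTC). Among 4-cell embryos Pes1 (18.1% with antisense) and Fbl (19% with GFP) varied least, and Utp14b (80.5% with antisense) and Imp3 (85.5% with GFP) most.

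The comparison of sperm RNA addresses whether the diet of a male, through the small RNA of its sperm, alters gene expression in 2-cell embryos. None of the biogenesis factors differed between these embryos by the test. With edgeR, 0 of 53 had an adjusted p under 0.05, where 0.0916% of all genes tested had (8 of 8735). At an unadjusted p under 0.05 there was 1 factor, compared with 4.04% of all genes tested, and DESeq2 likewise called 0 and had 1 at that level. The estimate was higher with low protein sperm RNA for 30 factors and lower for 23 (higher for 54.7% of all genes tested), and the median log2 fold change was 0.06 for the factors and 0.02 for all genes. The 95% interval of every one of the 53 fold changes lay within 2-fold in either direction, the widest bound being 0.77 on the log2 scale.

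By role, the median log2 fold change of low protein over control sperm RNA was -0.03 for RNA polymerase I, -0.0037 for box C/D, 0.05 for box H/ACA and 0.06 for the small-subunit, the large-subunit and the abundant nucleolar proteins. The factor with p under 0.05 was Utp23, which in yeast acts in early processing of the small-subunit RNA. It had 178, 587 and 1252 CPM (lowest, median and highest embryo) with low protein sperm RNA and 336, 641 and 1753 CPM with control sperm RNA. The groups overlapped, and the log2 fold change was -0.28 ± 0.13 (SE; p = 0.0303, edgeR adjusted p = 1.00). Next among lower estimates were Polr1d, with 29.1, 113 and 222 CPM against 53.3, 129 and 257 CPM in control embryos (log2 fold change -0.14 ± 0.12), and Imp3, with 19.6, 167 and 377 CPM against 15.2, 184 and 436 CPM (-0.17 ± 0.20). Among higher estimates Nol8, a large-subunit factor, had 79.7, 184 and 308 CPM in low protein embryos and 78.7, 150 and 304 CPM in control embryos (0.20 ± 0.10). The small-subunit factors Nop14 and Nol10 both had a log2 fold change of 0.23 ± 0.16, and their groups overlapped too. Nop14 had 21, 62.1 and 171 CPM in low protein embryos and 15.35, 50.5 and 182 CPM in control embryos.

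The other core factors of each role overlapped between the groups as well, and levels are given as lowest, median and highest embryo. In RNA polymerase I, Polr1a had 0, 108 and 294 CPM in low protein embryos and 5.05, 103 and 241 CPM in control embryos (log2 fold change 0.04 ± 0.20), and Polr1b had 0, 74 and 243 against 0, 64 and 176 CPM (0.15 ± 0.31). In box C/D particles, Fbl had 6.26, 95 and 151 against 11.6, 94.6 and 165 CPM (-0.0037 ± 0.16), Nop56 had 46.9, 443 and 1093 against 75.6, 449.9 and 745 CPM (0.06 ± 0.15) and Nop58 had 57.5, 506 and 982 against 63.5, 529.9 and 910.3 CPM (-0.05 ± 0.15). Some embryos of both groups had few or no counts of Polr1a and Polr1b, and the box C/D genes ran over a wide range in both. Among box H/ACA genes, Dkc1 had medians of 489 and 484 CPM, Nhp2 343 and 372 CPM, Gar1 37.6 and 31.3 CPM and Nop10 87.9 and 83.3 CPM with low protein and control sperm RNA.

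The small-subunit factors included Wdr43, with medians of 685 CPM in low protein embryos and 667 CPM in control embryos (-0.01 ± 0.15), Rrp9, a protein of the U3 particle (323 and 291 CPM, 0.07 ± 0.14), and Utp3 (99.3 and 87.6 CPM, 0.07 ± 0.18). Rrp12 (173 and 179.8 CPM, 0.12 ± 0.20), Nol6 (69.5 and 66.9 CPM, 0.06 ± 0.30) and Utp20 (52.7 and 46.9 CPM, 0.17 ± 0.23) were close in median too. Of the large-subunit factors, Nop2 had medians of 579.5 and 584 CPM (-0.07 ± 0.16), Nip7, which helps process the large-subunit RNA, 393 and 403 CPM (0.13 ± 0.14), and Ebna1bp2 158 and 136 CPM (0.09 ± 0.20) with low protein and control sperm RNA. Pes1 (-0.0021 ± 0.17), Bop1 (-0.07 ± 0.16) and Wdr12 (0.06 ± 0.28), which work as one complex, had estimates on both sides of 0, and the GTP-binding proteins Gnl2 (0.24 ± 0.21) and Gnl3 (0.11 ± 0.17) had estimates above it. Npm1 had medians of 1181 and 1167 CPM (0.06 ± 0.11), Ncl 321 and 266 CPM (0.13 ± 0.11) and Nolc1 566 and 603 CPM (-0.07 ± 0.13). None of these differences exceeded the spread between embryos by the test.

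**Figure D3:**
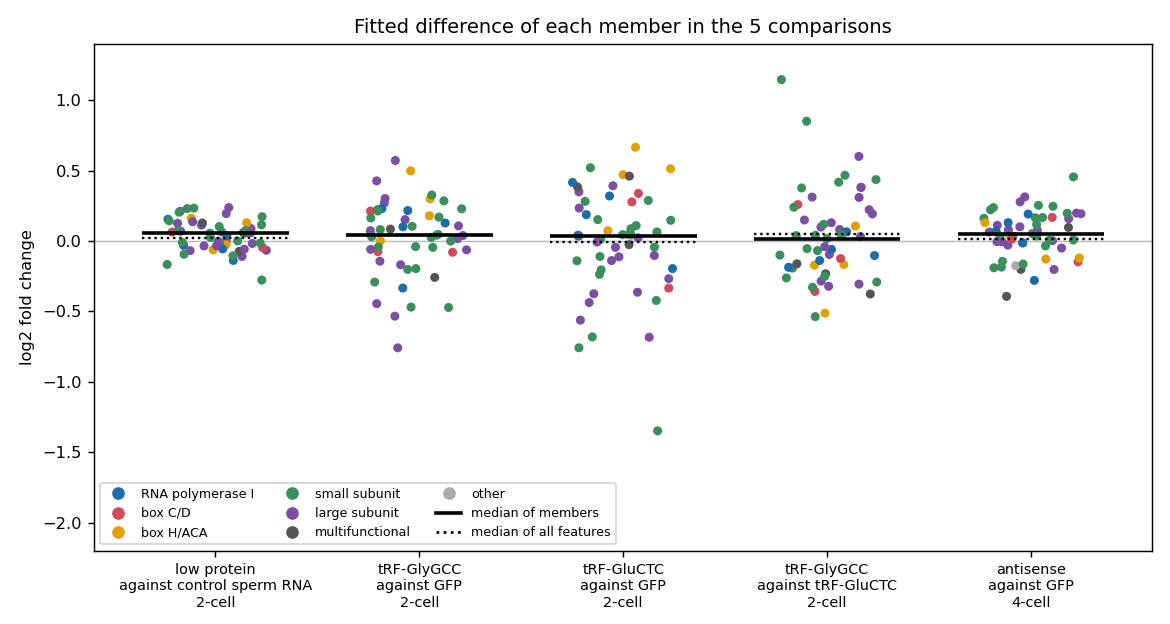
Log2 fold change of each factor in the 5 comparisons, coloured by role. Each point is a factor, solid bars are medians of the factors and dotted bars medians of all features. Points lie around 0 for low protein over control sperm RNA (-0.28 to 0.24) and antisense over GFP (-0.39 to 0.46). Those of the tRF comparisons spread wider, down to -1.35 for tRF-GluCTC over GFP. The 95% intervals are not drawn, and their widest bound was 3.17, for tRF-GluCTC over GFP.

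The next comparisons asked whether a synthetic tRF changes the 2-cell embryo relative to GFP mRNA alone. For tRF-GlyGCC against GFP, edgeR called 0 of 53 factors and 0% of the 8804 genes tested, with 0 factors at an unadjusted p under 0.05 (3.24% of all genes). DESeq2 also called 0 and had 0 at that level. Estimates were higher for 33 factors and lower for 20 (higher for 55.0% of all genes), with a median log2 fold change of 0.04 for the factors and 0.04 for all genes. Precision was lower than for sperm RNA: the median SE was 0.36 instead of 0.17, and the 95% interval stayed within 2-fold for 32 factors and reached past it for 21.

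Estimates were above 0 for all 4 box H/ACA genes (median 0.24), the highest being Nop10, a small structural subunit. Nop10 had 6.84, 105 and 200 CPM (lowest, median and highest) with tRF-GlyGCC and 28.3, 72.3 and 137 CPM with GFP, which overlapped, and the log2 fold change was 0.50 ± 0.32. Gnl3 had 7.14, 134 and 365 CPM against 19.9, 81.1 and 208 CPM with GFP (0.57 ± 0.38), and Npm1 had 535, 1287 and 2207 CPM against 601, 1218 and 1667 CPM (0.22 ± 0.19). On the lower side Gnl3l, a relative of nucleostemin, had 0, 80.1 and 211 CPM with tRF-GlyGCC and 22.9, 170 and 242 CPM with GFP (-0.76 ± 0.45). Nol9 had 21.4, 221 and 396 CPM with tRF-GlyGCC and 45.1, 310 and 428 CPM with GFP (-0.45 ± 0.31), and Ncl had 67.1, 263 and 468 CPM and 210, 290 and 478 CPM (-0.26 ± 0.20). In each case the groups overlapped, and the lowest embryo was one given tRF-GlyGCC.

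With tRF-GluCTC against GFP, edgeR again called 0 of 53 factors and 0% of the 8804 genes, with 0 factors at an unadjusted p under 0.05 (3.46% of all genes), and DESeq2 called 0 and had 0 at that level. There were 30 higher and 23 lower estimates (higher for 49.6% of all genes), with medians of 0.04 for the factors and -0.01 for all genes. With 6 tRF-GluCTC embryos from 1 batch, the interval stayed within 2-fold for 7 factors, and for the other 46 it does not exclude a difference of that size. The 4 box H/ACA genes had a median of 0.49, among them Dkc1 with 445, 914 and 1590 CPM against 267, 632 and 945 CPM with GFP (0.51 ± 0.34). Nol6 had 0, 15.6 and 52.7 CPM with tRF-GluCTC and 1.17, 35.6 and 134 CPM with GFP, with a log2 fold change of -1.35 ± 0.90. Rrp1b had 10.2, 27.9 and 50.6 CPM against 21, 47.2 and 101 CPM (-0.56 ± 0.41), and Utp6, a small-subunit scaffold protein, had 3.93, 51.2 and 123 CPM against 14.1, 77.8 and 160 CPM (-0.68 ± 0.64). Utp23 had 501, 872 and 2512 CPM against 450, 640 and 1144 CPM (0.52 ± 0.35), and Nop10 had 54.7, 118 and 208 CPM against 28.3, 72.3 and 137 CPM (0.67 ± 0.45). The groups overlapped for all 6. Both tRF comparisons use the same 11 GFP embryos, so their values are not independent.

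Set directly against tRF-GluCTC, tRF-GlyGCC left 0 of 53 factors called by edgeR and 0% of 8804 genes, with 0 factors at an unadjusted p under 0.05 (2.20% of all genes), and DESeq2 called 0 with 0 at that level. Estimates were higher for 27 factors and lower for 26 (higher for 54.4% of all genes), and medians were 0.02 for the factors and 0.05 for all genes. The interval stayed within 2-fold for 14 factors. Dkc1 had the smallest p of the set, with 207, 587 and 1260 CPM with tRF-GlyGCC and 445, 914 and 1590 CPM with tRF-GluCTC (log2 fold change -0.51 ± 0.28, p = 0.0768, edgeR adjusted p = 1.00). Utp23 (-0.29 ± 0.30) and Nolc1 (-0.38 ± 0.40) followed among lower estimates, and Rrp1b (0.60 ± 0.36), Utp6 (0.85 ± 0.57) and Nol6 (1.15 ± 0.82) among higher ones. For none of these did the 95% interval exclude 0.

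Other core factors varied as widely in the tRF table. Nop58 had medians of 354 CPM with tRF-GlyGCC, 424 CPM with tRF-GluCTC and 401 CPM with GFP, and Nop56 had 400.0, 369 and 346 CPM. Nop2 had 311.3, 285 and 448 CPM, Wdr43 498, 417 and 504 CPM and Nhp2 241, 255 and 265 CPM in the same order of groups. Polr1a (67.5, 40.5 and 64 CPM) and Rrp12 (98.4, 56 and 196 CPM) had their lowest medians with tRF-GluCTC, with wide intervals around each fold change against GFP (0.19 ± 0.74 and -0.14 ± 0.67, SE). Nolc1 had 391.8, 485 and 462 CPM and Npm1 1287, 1370 and 1218 CPM.

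The last comparison set the antisense oligonucleotide against GFP at the 4-cell stage. By limma on log2(FPKM + 1), a scale that understates the change of low genes, 0 of 54 factors were called, where 0.0276% of all features were (2 of 7237). At an unadjusted p under 0.05 there were 3 factors, compared with 10.9% of all features. Estimates were higher with antisense for 35 and lower for 19 (higher for 52.7% of all features), and the median log2 fold change was 0.05 for the factors and 0.01 for all features. Every interval lay within 2-fold, the widest bound being 0.79. Role medians were 0.07 for RNA polymerase I, 0.01 for box C/D, -0.04 for box H/ACA, 0.05 for the small subunit, 0.08 for the large subunit and -0.20 for the 3 abundant nucleolar proteins.

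Npm1 had the smallest p of the set in this comparison. Its level was 1140, 2154 and 3581 FPKM (lowest, median and highest) with antisense and 1976, 2870 and 6878 FPKM with GFP. The ranges overlapped between 1976 and 3581 FPKM, and the log2 fold change was -0.39 ± 0.10 (95% interval -0.60 to -0.19, p = 0.000314, limma adjusted p = 0.141). Under the alternatives it stayed between -0.46 and -0.26 on the log2 scale without being called. Ncl, at 36.8, 70.2 and 117 FPKM with antisense and 52.5, 82.6 and 196 FPKM with GFP, had a log2 fold change of -0.20 ± 0.10, and Polr1a, at 5.36, 16.5 and 24.3 FPKM with antisense and 5.79, 18.4 and 39.7 FPKM with GFP, had -0.28 ± 0.16.

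The other factors with p under 0.05 had higher estimates with antisense. Utp23 had 34.8, 48.7 and 271 FPKM with antisense and 25.3, 38.6 and 80.2 FPKM with GFP, with antisense embryo 19 far above the rest (log2 fold change 0.46 ± 0.16, p = 0.00781, limma adjusted p = 0.244). That embryo had 8844 features above 0 FPKM, the fewest of the antisense group, whose median was 12707. Nop16, a large-subunit factor, had 41.1, 77.7 and 285 FPKM against 37.3, 68.4 and 99.6 FPKM with GFP (0.31 ± 0.14, p = 0.0295, limma adjusted p = 0.380). Utp15, of the complex that meets the nascent precursor, had 39.2, 69.3 and 159 FPKM against 7.71, 60.9 and 90.8 FPKM (0.25 ± 0.14). Medians of the summed stage markers also differed between the groups, but their ranges overlapped and the difference was not tested. Oocyte transcripts had a median of 338 FPKM with antisense and 251 FPKM with GFP, 7 transcripts of the 2-cell stage had 178 and 74.7 FPKM, and Cdx2, Nanog and Pou5f1, the list for 4-cell and later stages, had 100.2 and 156 FPKM. The part of the other stage lists in these estimates was not tested. With the oocyte sum as a covariate the log2 fold change was -0.40 for Npm1 and 0.38 for Utp23, and 0 factors were called. In the authors' deposited table of this comparison, 0 of the 54 factors were marked significant, compared with 1.11% of 6465 features tested there. Among the factors, 3 had p under 0.05 in the authors' deposited table. These were Npm1, with group values of 2504 FPKM injected and 3533 FPKM control (p = 0.0024, q = 0.115), Utp23, with 51 and 38.7 FPKM (p = 0.0373), and Ncl, with 84.2 and 105 FPKM (p = 0.0471), in the authors' deposited table.

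Further core factors had small estimates with antisense. Log2 fold changes were 0.07 ± 0.22 for Polr1b and -0.01 ± 0.11 for Polr1d, -0.15 ± 0.14 for Fbl, 0.17 ± 0.15 for Nop56 and 0.01 ± 0.13 for Nop58. They were 0.04 ± 0.13 for Dkc1, -0.13 ± 0.10 for Gar1, -0.12 ± 0.15 for Nhp2 and 0.13 ± 0.18 for Nop10. In the small subunit they were 0.01 ± 0.14 for Wdr43, 0.03 ± 0.18 for Imp3 and 0.20 ± 0.16 for Utp3, and in the large subunit 0.10 ± 0.11 for Pes1, -0.03 ± 0.31 for Bop1, -0.0046 ± 0.16 for Wdr12 and -0.01 ± 0.21 for Nop2. Each 95% interval among these included 0.

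In 2-cell embryos most factors were high or low together from embryo to embryo. With each group and batch centred, the median Spearman correlation between pairs of factors was 0.36 over the 88 embryos given sperm RNA, where 94.3% of the 1378 pairs were positive, and 0.57 over the 43 of the tRF table, where 96.2% were. Over pairs of all genes with such a mean level (20 CPM) the medians were 0.0013 and 0.0038. For 4-cell embryos the factors' median was 0.14, with 69.1% of 1431 pairs positive, compared with 0.065 over all pairs. All values of an embryo come from 1 library and share its scaling, and these correlations are descriptions. In the 2-cell tables Utp15, Gnl3 and Rrp7a followed the others most closely in embryos given sperm RNA (medians of 0.49 to 0.50), as did Utp6, Gnl3 and Polr1e, a polymerase I subunit, in the tRF table (0.69 to 0.70). Utp23 ran against them, with a median correlation of -0.34 (2 of 52 positive) in the first and -0.54 (0 of 52 positive) in the second. In the 4-cell table Nhp2 (-0.19) and Nop10 (-0.16) had the lowest medians.

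The factors' level was then set against transcripts that the oocyte leaves to the embryo and that decay after fertilisation. These were Gdf9, Bmp15, Zp1, Zp2, Zp3, Oosp1, Bcl2l10 and Btg4, summed per embryo. This measure was chosen after the data had been seen. The sum was 1790, 3431 and 21836 CPM (lowest, median and highest) with low protein and 1435, 3727 and 8760 CPM with control sperm RNA. In the tRF table it was 1647, 3392 and 24560 CPM with tRF-GlyGCC, 2715, 4546 and 8823 CPM with tRF-GluCTC and 2187, 3910 and 7463 CPM with GFP. The groups overlapped, and the highest low protein and tRF-GlyGCC embryos lay far above the highest control and GFP embryos.

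In both 2-cell tables, embryos with more of these oocyte transcripts had less RNA of most biogenesis factors. A slope here is the log2 change of a gene per doubling of the summed oocyte transcripts, fitted by edgeR with group and batch in the model. Over embryos given sperm RNA, 50 of 53 factors had a lower level (adjusted p under 0.05), where 29.5% of the 8727 genes tested were lower, and 1 was higher, where 29.2% of genes were. Their median slope was -0.63, beside -0.01 for all genes. Over embryos of the tRF table, 46 of 53 were lower, where 26.5% of 8796 genes were, and 1 was higher, where 24.5% were. The median there was -0.76, beside -0.06 for all genes. The same 46 factors were lower in both tables, and 4 more passed the test with sperm RNA but not in the tRF table, a difference that was not tested. CPM are shares of a library, so a rise of one group of transcripts lowers the others.

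Lower levels ran through every role. Median slopes over embryos given sperm RNA and over the tRF table were -0.80 and -0.96 for RNA polymerase I, -0.68 and -0.79 for box C/D, -0.55 and -0.58 for box H/ACA, -0.65 and -0.80 for the small subunit, -0.66 and -0.75 for the large subunit and -0.38 and -0.34 for the abundant nucleolar proteins. Nop58 had a slope of -0.68 ± 0.10 with sperm RNA (SE; edgeR adjusted p = 2.5e-08) and -0.91 ± 0.18 in the tRF table (edgeR adjusted p = 6.0e-05). Polr1b had -0.82 ± 0.21 and -1.35 ± 0.20, Nol11, of the same early complex as Wdr43, -0.71 ± 0.09 and -0.98 ± 0.18, and Nop2, a methyltransferase of the large-subunit RNA, -0.77 ± 0.11 and -1.20 ± 0.30. Smaller slopes belonged to Dkc1 (-0.33 ± 0.11 and -0.27 ± 0.12) and Npm1 (-0.33 ± 0.08 and -0.24 ± 0.09). These 6 and Utp23 are shown because of their values. Utp18 and Nol10, both of the small subunit, did not pass in either table (slopes from -0.27 to 0.03), nor did Polr1d, Nip7, Rrp1b and Nol8 in the tRF table (-0.25 to -0.07).

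The steepest slopes belonged to Nol6 (-0.99 ± 0.23) and Bop1 (-0.85 ± 0.11) with sperm RNA and to Nop9, which binds the small-subunit precursor (-1.49 ± 0.26), and Bop1 (-1.43 ± 0.31) in the tRF table. Within the complex of Pes1, Bop1 and Wdr12, Pes1 had -0.71 ± 0.12 and -0.75 ± 0.17 and Wdr12 had -0.77 ± 0.19 and -1.01 ± 0.31. Among box H/ACA genes Nhp2 had -0.62 ± 0.10 and -0.66 ± 0.19, Nop10 had -0.63 ± 0.12 and -0.65 ± 0.17 and Gar1 had -0.49 ± 0.14 and -0.50 ± 0.18. All of these passed the test in both tables.

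Single embryos at the end of the range are given as extremes, not as the typical size of the change. The low protein embryo with most oocyte transcripts (embryo 14, batch E, 21836 CPM) had 57.5 CPM of Nop58, below the 506 CPM of the median low protein embryo, and the lowest factor sum of its group. The tRF-GlyGCC embryo with most (embryo 18, batch G, 24560 CPM) had 28.4 CPM of Nop58 and also the lowest factor sum of its group, compared with a median of 354 CPM for Nop58 in that group. Next in oocyte transcripts among low protein embryos were embryos 36 (16380.5 CPM), 8 (13703 CPM) and 24 (12344 CPM). They had 317, 234 and 252 CPM of Nop58, also below the low protein median but well above embryo 14. Without the 2 embryos farthest from the median in each table, 47 factors with sperm RNA and 41 in the tRF table were lower, where 25.3% and 22.7% of all genes were.

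The list for 4-cell and later stages ran against the factors in the embryos at the ends of the range. Pou5f1 and Nanog, the 2 of the 3 genes listed for 4-cell and later stages that the 2-cell tables hold, summed to a median of 151 CPM in low protein embryos and 170 CPM in control embryos, and of 249.3 CPM with tRF-GlyGCC, 293 CPM with tRF-GluCTC and 209 CPM with GFP. Pou5f1 mRNA is also known from oocytes. In the embryos with the lowest factor sum of their group this level was 1052 CPM (low protein embryo 14), 899 CPM (control embryo 9), 981 CPM (tRF-GlyGCC embryo 18) and 1011 CPM (GFP embryo 8). In those with the highest factor sum it was 45.4 CPM (low protein embryo 25), 57 CPM (control embryo 41), 73.8 CPM (tRF-GlyGCC embryo 12) and 93.1 CPM (GFP embryo 3). The marker level was thus high where the factors were low in each of these groups. The 7 transcripts of the 2-cell stage had no such order, with 1027 CPM in low protein embryo 14 and 2030 CPM in low protein embryo 25, and 4804 CPM in control embryo 9 and 1186 CPM in control embryo 41. The part of these markers in the slopes was not tested.

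**Figure D4:**
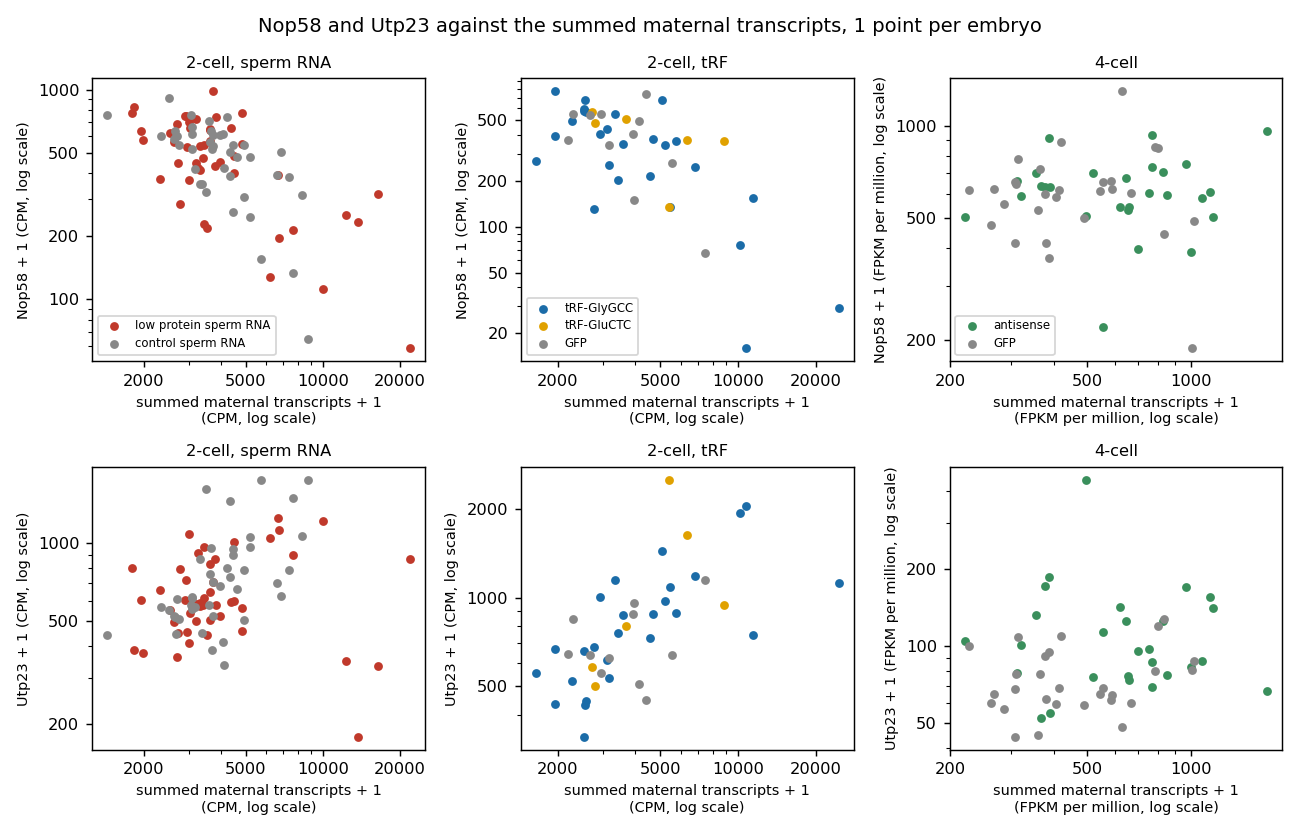
Level of Nop58 and of Utp23 in each embryo against the summed oocyte transcripts, on log axes, for the sperm RNA, tRF and 4-cell tables. Each point is 1 embryo, coloured by injected RNA. Nop58 falls with the oocyte transcripts in both 2-cell tables (slopes of -0.68 and -0.91), Utp23 rises (0.31 and 0.52), and neither does so among 4-cell embryos.

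The exception was Utp23 (chr15:51877441-51884622, GRCm38.p6), whose slope was 0.31 ± 0.09 with sperm RNA (edgeR adjusted p = 0.0022) and 0.52 ± 0.10 in the tRF table (edgeR adjusted p = 7.3e-05). It was the one factor called higher in each table. Embryo 23 of tRF-GlyGCC, with 10772 CPM of oocyte transcripts, had 2048 CPM of Utp23, the highest of its group, and 15 CPM of Nop58, the lowest. This embryo was also the sparsest of its group, with counts for 7632 genes (group median 8506) and for 43 factors. The call rested on 1 batch in each table: without batch E the slope of Utp23 was -0.01 with sperm RNA, and without batch H it was 0.30 and not called. Within the low protein embryos alone it was 0.10, again not called. Its counts are among those shared between loci, and it overlaps an antisense transcript.

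A lower level of other factors was also called inside the groups and batches fitted alone, except among GFP embryos. Batches other than E, G and H and the tRF-GluCTC embryos were not fitted alone. Within low protein embryos 42 of 53 were lower (20% of all genes tested) and within control embryos 42 (17.8% of genes). Within tRF-GlyGCC embryos 41 were lower (20.7% of genes). In the sperm RNA table, within batch E, 50 were lower (25.7% of genes), as many as over all its batches. In the tRF table, within batch G, 35 were lower (17.8% of genes), and within batch H 28 (14.3% of genes). Without batch E, which held 25 of the 46 low protein and 17 of the 42 control embryos, 31 were lower, where 12.4% of genes were. Among the 11 GFP embryos alone 0 were called, with a median slope of -1.20 (0.0115% of genes lower). The choice of transcript mattered: on Gdf9 alone 51 factors were lower with sperm RNA and 37 in the tRF table (26.1% and 16.1% of all genes), and on Btg4 alone 47 and 30 (23.3% and 16.7% of all genes). On Zp3 alone 0 factors were called in either table, and the median slope turned to 0.14 and 0.22. Zp3 was a low transcript here, with median levels of 46.3 and 46.8 CPM in low protein and control embryos, while Btg4 had 1272 and 1318 CPM. Whether the injected RNA bears on these slopes was not tested.

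**Figure D5:**
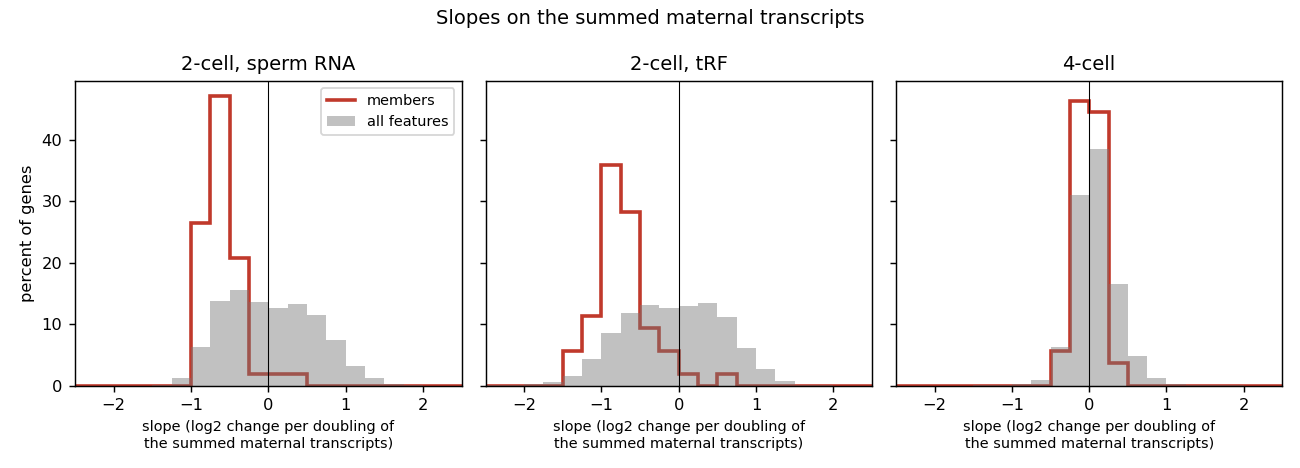
Distribution of slopes on the summed oocyte transcripts for the factors and for all genes tested, as percent of each set, in the 3 tables. In both 2-cell tables the factors gather left of 0 (medians of -0.63 and -0.76) while all genes centre near 0, and at the 4-cell stage both centre near 0.

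At the 4-cell stage no such slope was found. By limma 0 of 54 factors were called lower and 0 higher, where 0.106% of the 8526 features tested were lower and 0.962% higher. At an unadjusted p under 0.05 there were 3 factors, and 1018 of the 8526 features. Their median slope was -0.01, beside 0.06 for all features. Nop58 had -0.13 ± 0.11 and Utp23 0.11 ± 0.13. The oocyte transcripts still varied there. As deposited, their sum ran from 111 to 881 FPKM with antisense (median 338) and from 141 to 1016 FPKM with GFP (median 251). With FPKM rescaled as in these fits, it ran from 219 to 1666 with antisense and from 225 to 1018 with GFP. On Gdf9 alone 2 factors were lower, where 3.18% of all features were, and 17 higher. The median slope on Gdf9 was 0.08 for the factors and 0.12 for all features. On Zp3 alone 2 factors were lower, where 4.01% of all features were, and 1 higher. The share of all features higher on Gdf9 or Zp3 alone was not counted, so the higher factors have no background to be set against. The difference in slope between stages was not tested, since the tables were made and scaled separately.

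A second list held ribosome biogenesis genes outside the set. Of its 84 gene symbols, among them those of RNA polymerase I transcription factors, helicases, exosome subunits and assembly factors, 83 were tested. In the 5 comparisons of injected RNA 0 of them were called by edgeR or limma, with 3 at an unadjusted p under 0.05 for low protein sperm RNA, 3 for tRF-GlyGCC, 0 for tRF-GluCTC, 0 between the tRFs and 8 for antisense, where 4.04%, 3.24%, 3.46%, 2.20% and 10.9% of all features were. On the oocyte transcripts, 73 were lower and 3 higher over embryos given sperm RNA (median slope -0.63), where 29.5% of all genes were lower and 29.2% higher. Over embryos of the tRF table, 69 were lower and 2 higher (median -0.76), where 26.5% and 24.5% of all genes were. At the 4-cell stage 0 were called, with 11 at an unadjusted p under 0.05, where 1018 of 8526 features were. The list was not tested against the 54 factors. The higher ones were Riok1, a kinase of late small-subunit maturation (1.08 with sperm RNA and 0.75 in the tRF table), Rsl1d1, a nucleolar protein (0.17 and 0.28), and, in the sperm RNA table, the exosome subunit gene Exosc8 (0.21).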

How the data were processed

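Per the labels' protocols, each embryo gave one Nextera library made with a kit for single-cell RNA-seq. Of 187 embryos in the labels, 186 had a column, and 1 antisense embryo was not analysed here. The submitters' processing notes name Bowtie and the mm10 build. Versions, counter, annotation and strand setting were not given in the sources used here. For 2-cell embryos the authors deposited expected counts per gene, and for 4-cell embryos FPKM. FPKM keep no depth. A further deposited table gives the authors' own group FPKM, p-values and q-values for the 4-cell groups and was used only to copy values.

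The quasi-likelihood test of edgeR 4.0.16 was run on the rounded expected counts, with TMM scaling and filterByExpr, and CPM use the TMM-scaled library size. FPKM were tested with limma 3.58.1 (trend, robust) on log2(FPKM + 1) for features whose mean reached 5 FPKM. Batch was additive in each model, one fit covered the 3 groups of the tRF table, tests were two-sided, and p-values were adjusted by Benjamini-Hochberg over all features tested, with a threshold of 0.05. R was 4.3.3. All factors passed both filters. The code was tested on simulated data. Alternatives were DESeq2 1.42.0 (2-cell), RLE scaling, no low-count filter, no batch term, a replicate block, sample weights, other pseudocounts and minimums, rescaled FPKM, and leaving out batches or embryos that stand apart.

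The genes, the lists and the tests were chosen with earlier results of these data known. Named were core factors of each role and, per comparison, the 3 of smallest p in each direction, with extremes of level and CV. Levels were ranked between genes in the 4-cell table only, because gene lengths for the 2-cell counts could not be had reliably. The summed factors were first set against total counts, detected genes and the marker lists, and the oocyte list was taken forward after seeing the data. In the slope fits the transcripts that make up the sum were left out, and the 4-cell FPKM were rescaled to the same total in each embryo. Factor promoters and positions are RefSeq GRCm38.p6.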

Additional observations from a re-analysis of the deposited data

How the results depend on the processing

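Under 56 alternative fits of the 5 comparisons, 0 factors were called in any. The 336 fold changes of the factors named for the smallest p in each direction of a comparison kept their sign under these alternatives. Of 2649 estimates of the other factors, which include core factors named above, 342 changed sign. None of these had a log2 fold change above 0.534 in size. Gnl2, at 0.24 for low protein over control sperm RNA, changed sign with the replicate block. The number of higher estimates moved between 22 and 42 of 53 for low protein sperm RNA and between 20 and 43 of 53 for tRF-GluCTC against GFP. Without antisense embryos 9 and 19, 8 factors had an unadjusted p under 0.05 and 0 were called. The share of all features at that unadjusted level was not counted in this fit. With the replicate block, 0 factors were called in each comparison. Embryos with the same first number in the title had a mean correlation of 0.012, 0.083 and -0.0025 in the sperm RNA, tRF and 4-cell tables. The lowest was -0.40, -0.48 and -0.32. Embryos with other numbers had means of -0.00090, -0.048 and 0.00061. Such means cannot show whether the numbers link embryos of shared origin, and this was not tested.

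The slopes on oocyte transcripts, and every alternative to them, were chosen after seeing the data. On Zp3 alone 0 factors were lower and 0 higher in both 2-cell tables, with slopes in the sperm RNA table of 0.28 for Polr1b, 0.12 for Nop58, 0.10 for Nol11, -0.11 for Utp23, 0.19 for Nop2 and 0.17 for Npm1. In the tRF table they were 0.22 for Polr1b, 0.26 for Nop58, 0.15 for Dkc1, 0.12 for Nol11, -0.045 for Utp23, 0.46 for Nop2 and 0.10 for Npm1. On Btg4 alone 30 were lower in the tRF table (16.7% of all genes). Without batch E 31 were lower (12.4% of all genes) and 0 higher (Utp23 -0.010), and within low protein embryos 0 were higher. Without batch G, which is within batch H alone, 28 were lower (14.3% of all genes). Without batch H, within batch G alone, 0 were higher. Within GFP embryos 0 were lower (0.0115% of all genes) and 0 higher. At the 4-cell stage Zp3 alone gave 2 lower (4.01% of all features) and 1 higher, and Gdf9 alone 2 lower (3.18% of all features) and 17 higher. The share of all genes or features called higher was not counted in these alternatives, at the 2-cell or the 4-cell stage. Median factor sums moved to 14390 with antisense and 14810 with GFP when FPKM were rescaled, to 9863 FPKM with antisense in batch P alone, to 9591 CPM with low protein in batch C alone and to 5704 CPM with control sperm RNA in batch D, which held 1 control embryo. The cause was not tested. The tRF-GluCTC comparison has 6 embryos from 1 batch.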
